A study of Mus musculus with 6 samples.

Results

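The mitochondrially encoded genes are the 37 genes of the mouse mitochondrial chromosome. They were chosen as all genes whose symbol begins with mt-, which gave 13 mRNAs, 2 rRNAs and 22 tRNAs out of 26835 genes measured. RNA had been sequenced from bone marrow-derived macrophages, which are primary macrophages grown from marrow. The donor mice were BALB/c animals labelled WT and aged between 5 and 8 weeks. The marrow cells spent 6 days in RPMI medium with 10% serum and the macrophage growth factor M-CSF (25 ng/ml), and this was the same in both groups. One group then received 10 µg of K7M2-EVs, extracellular vesicles of the mouse osteosarcoma line K7M2, for 24 h. The control group received PBS (phosphate-buffered saline) for 24 h. Each group held 3 libraries from separate experiments, and the sources used here do not say whether marrow of several animals was pooled. Values are FPKM, fragments scaled by transcript length and by library total, so that they are relative to the whole library and not to the number of cells. The comparison asked how tumour vesicles change the macrophage transcriptome, and here it is read on the mitochondrial transcripts.

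Mitochondria keep a small circular chromosome of their own, present in many copies per cell. Both of its strands are transcribed into long precursors, mostly from start sites in one control region, and enzymes cut out the tRNAs that punctuate them to release the rRNAs and mRNAs. Its mRNAs encode core subunits of respiratory complexes I, III and IV and of the ATP synthase (complex V), and all its other proteins, including those that transcribe and translate it, come from the nucleus. In macrophages, inflammatory activation is known to be accompanied by a shift away from oxidative phosphorylation.

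The 2 rRNAs fell with vesicles, and so did 6 of the 13 mRNAs, while no mitochondrial gene rose, although mt-Nd1, mt-Ti and mt-Tp were called higher under median-of-ratios scaling. Mean levels changed by -39.4% and -42.0% for the rRNAs and by -12.9% to -23.6% for the 6 mRNAs. The mRNAs nearest to the start of the heavy-strand transcript, mt-Nd1, mt-Nd2 and mt-Co1, were at nearly the same level in both groups, and the mRNAs farthest from it were lower in every vesicle library than in any PBS library. Of the 22 tRNAs, 19 passed the filter on low values and 2 of them were called lower, on few reads. A gene was called at a Benjamini-Hochberg adjusted p under 0.05 in limma. The adjustment ran over the 13009 genes that reached 1 FPKM in 3 or more libraries. Over all of these, 35.6% were called lower and 18.4% higher, and their median log2 change was -0.12. The 6 of 13 mRNAs called lower are not far from that share, so this count by itself is no result about the mRNAs. Every log2 change given is K7M2-EV over PBS on the log2(FPKM + 1) scale.

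In neighbouring genes on this compact chromosome the reading frames can overlap, and the stretch where mt-Atp8 and mt-Atp6 meet is printed because reads there belong to both genes. Sequences are from the GENCODE transcripts on GRCm38 and are written 5′ to 3′. Capitals mark the bases that lie in both genes, 43 of them at chrM:7907-7989 and 7 of them at chrM:10147-10193, both on the plus strand.
mt-Atp8/mt-Atp6: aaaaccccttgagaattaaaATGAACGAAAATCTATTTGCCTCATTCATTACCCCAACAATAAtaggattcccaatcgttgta
mt-Nd4l/mt-Nd4: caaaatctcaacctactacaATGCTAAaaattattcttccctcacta
These pairs are each carried on a single bicistronic mRNA. mt-Nd5 and mt-Nd6 also share 14 bases, but on opposite strands, and the sources used here give no strand setting for the counting.

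Nuclear copies of mitochondrial DNA are a second place where reads can be shared. Aligning annotated transcripts to the mitochondrial genes found 17 nuclear copies at 90% identity or more over at least 100 bases, of which 14 had a value. For 7 of them the identity was 99% or more, and these lie side by side on chromosome 1, minus strand. A stretch of the members mt-Nd3 (chrM:9459-9491) and mt-Co1 (chrM:6390-6423) is printed above that of its copy to show how little separates them, with capitals on the 1 base that differs over the whole alignment.
mt-Nd3: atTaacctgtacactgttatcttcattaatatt
Gm28438: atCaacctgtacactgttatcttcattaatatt
mt-Co1: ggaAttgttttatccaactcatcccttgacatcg
Gm29216: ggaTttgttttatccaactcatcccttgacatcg
The 3 copies with the highest mean level were Gm29216, Gm10925 and Gm28661. Gm29216, a copy of part of mt-Co1, was at 475 ± 30.5 FPKM with PBS against 470 ± 37.4 FPKM with vesicles (SD, n = 3 per group) and was not called. Gm10925, identical to mt-Atp6 over 678 bases, went from 397 ± 24.9 to 336 ± 19.1 FPKM, a log2 change of -0.24 (limma, Benjamini-Hochberg adjusted p = 0.0316). Gm28661, identical to mt-Co2 over 681 bases, went from 365 ± 10.5 to 308 ± 20.5 FPKM, a log2 change of -0.25 (limma, Benjamini-Hochberg adjusted p = 0.0194). The 7 near-identical copies held reads equal to 4.24% to 22.2% of those of their mitochondrial counterpart. How the authors' counting split such reads is not given, so the levels of mt-Co1, mt-Co2, mt-Co3, mt-Atp6, mt-Nd3, mt-Nd4 and mt-Nd4l are uncertain to that extent. With the copies' reads added to the members, mt-Co3 passed the threshold (limma, Benjamini-Hochberg adjusted p = 0.0491) and no other member's call changed.

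The spacing of low FPKM values gave implied totals of 21342924 to 25680669 reads per library. Of these, 322822 to 390047 reads per library fell on the mitochondrial mRNAs, 11121 to 22975 on the rRNAs and 401 to 453 on all 22 tRNAs together. Of the 8 macrophage markers each reached 1 FPKM in at least 1 library, and their summed level was 4108 to 5016 FPKM with PBS and 12379 to 13872 FPKM with vesicles, with 5 called higher, 2 called lower and 1 not called. The 16 mesenchymal or osteoblast markers summed to 177 to 399 FPKM with PBS and 250 to 663 FPKM with vesicles, highest in replicate 2 of both groups, with overlap between the groups. Of these, 5 stayed under 1 FPKM everywhere, and of 9 tested 1 was called lower and none higher. The 10 neutrophil markers in the files, of 11 listed, summed to 5.77 to 8.00 FPKM with PBS and 54.7 to 69.4 FPKM with vesicles. Among them 6 stayed under 1 FPKM everywhere, and of 4 tested 3 were called higher and none lower. The 8 erythroid or platelet markers in the files, of 9 listed, summed to 31.1 to 36.7 FPKM with PBS and 128 to 158 FPKM with vesicles. Of these, 6 stayed under 1 FPKM everywhere, and the 2 tested were called higher. The 5 lymphocyte markers in the files, of 9 listed, summed to 9.36 to 11.8 FPKM with PBS and 1.48 to 2.92 FPKM with vesicles. Of them, 3 stayed under 1 FPKM everywhere, and the 1 tested was called lower. No listed marker in the files was at 0 in all libraries. Beside these calls, 18.4% of all genes tested were called higher and 35.6% lower. The macrophage, neutrophil, erythroid or platelet and lymphocyte sums moved with the treatment, and their part in the results on mitochondrial genes was not tested. In bulk RNA, fewer cells of a type and less RNA per cell cannot be told apart.

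As shares of the reads recovered over all genes with an exon length, mitochondrial mRNAs took 1.86%, 1.90% and 1.81% in PBS replicates 1 to 3. In K7M2-EV replicates 1 to 3 they took 1.59%, 1.64% and 1.56%. All vesicle libraries were below all PBS libraries, and the ratio of the group means was 0.860. The rRNAs took 0.118% ± 0.0126 of reads with PBS and 0.0658% ± 0.0123 with vesicles (SD, n = 3 per group), a ratio of 0.558, again with no overlap. For the tRNAs the ratio was 0.906 and the groups overlapped. Fth1, which encodes the heavy subunit of the iron store ferritin, rose with a log2 change of 1.67 to a mean of 22445 FPKM in the vesicle libraries. With Fth1 left out of the total, the ratios were 0.915 for mRNAs, 0.594 for rRNAs and 0.965 for tRNAs. The totals used for these shares are smaller than the implied totals of the libraries. Against the implied totals the shares are lower, and ratios between groups were not computed on them.

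The rRNAs form the core of the small (mt-Rnr1, chrM:70-1024) and large (mt-Rnr2, chrM:1094-2675) subunit of the mitochondrial ribosome and lie ahead of all the mRNAs, nearest to the start of the heavy-strand transcript, where the tRNA genes mt-Tf and mt-Tv flank mt-Rnr1. mt-Rnr1 was at 344, 378 and 301 FPKM in PBS replicates 1 to 3 and at 157, 225 and 238 FPKM in K7M2-EV replicates 1 to 3. Every vesicle library was below every PBS library, with vesicle replicate 1 the lowest. The group means were 341 ± 39.0 and 207 ± 43.4 FPKM (SD, n = 3 per group), a log2 change of -0.74 with a standard error of 0.17 (limma, Benjamini-Hochberg adjusted p = 0.0115). mt-Rnr2 was at 440, 452 and 370 FPKM with PBS against 197, 258 and 277 FPKM with vesicles. It showed the same separation of groups and the same low vesicle replicate 1. Its means were 421 ± 44.1 and 244 ± 41.8 FPKM, a log2 change of -0.79 (limma, Benjamini-Hochberg adjusted p = 0.00416). The sizes differed between same-numbered libraries: the log2 ratio for mt-Rnr2 was -1.15 for replicate 1, -0.81 for replicate 2 and -0.41 for replicate 3.

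The 2 rRNAs moved together. The ratio of mt-Rnr2 to mt-Rnr1 was 1.23 ± 0.0410 with PBS and 1.19 ± 0.0578 with vesicles, and the groups overlapped. Against the mRNAs they were lower: per 100 mRNA reads there were 6.55, 6.76 and 5.74 rRNA reads with PBS and 3.27, 4.28 and 4.84 with vesicles. The ratio of mt-Rnr2 to mt-Nd1, its neighbour on the same strand, was 0.358 ± 0.0391 with PBS and 0.197 ± 0.0377 with vesicles (SD, n = 3 per group). Because both genes are read in the same library, this ratio does not depend on how libraries are scaled. Whether rRNA was depleted or poly(A) RNA selected during library making is stated in none of the sources used here. The row CT010467.1, annotated as a nuclear rRNA, was at 193 ± 32.5 FPKM with PBS against 152 ± 16.9 FPKM with vesicles, a log2 change of -0.33 that was not called (limma, Benjamini-Hochberg adjusted p = 0.0871). More abundant noncoding rows looked at beside it were not called either. Gm26917 and Gm42418, annotated as lincRNA, were at 0.07 and -0.07 on the log2 scale. Rn7sk, Rn7s1, Rmrp and Rpph1 were at -0.19, 0.17, -0.03 and -0.04. Gm47299 ranged from 0.487 to 36625 FPKM between libraries. The part of rRNA removal in the change of mt-Rnr1 and mt-Rnr2 was not tested.

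**Figure D1:**
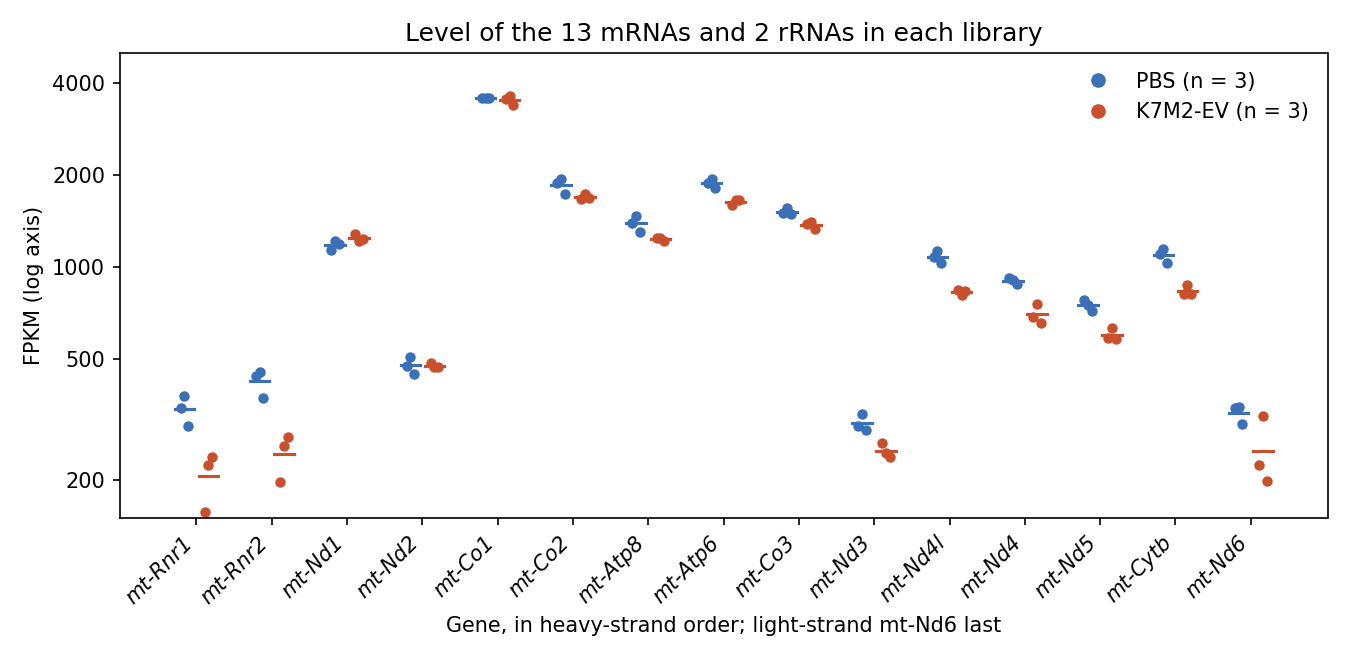
FPKM on a log axis for the 13 mRNAs and 2 rRNAs in each of the 6 libraries, with a line at each group mean (n = 3 per group) and the genes in heavy-strand order, light-strand mt-Nd6 last. mt-Co1 had the highest level in both groups, and the PBS and vesicle points of mt-Rnr1, mt-Rnr2 and the genes from mt-Atp8 to mt-Cytb do not overlap.

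Among the mRNAs, 6 of 13 were called lower (against 35.6% of all genes tested), none was called higher and 7 were not called. Their median log2 change was -0.20, between -0.44 and 0.08. Of the 13 values 12 were negative, where 8173 of all 13009 genes tested were negative. The signs of small changes depend on the processing: over the alternatives mt-Nd2 reached 0.14, mt-Co1 0.12, mt-Co2 0.02 and mt-Co3 0.003. In 8 of the 13 the groups did not overlap, each time with the vesicle libraries lower, where 42.0% of all genes tested showed that and 63.8% were without overlap in either direction. By respiratory complex, 4 of 7 subunits of complex I were lower, the single complex III subunit was lower, 1 of 2 of complex V was lower and none of 3 of complex IV was called.

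Complex I, the NADH dehydrogenase, takes electrons from NADH and has 7 subunits encoded here. mt-Nd1 (chrM:2751-3707), a core subunit of its membrane arm, was at 1134, 1215 and 1181 FPKM with PBS against 1279, 1212 and 1235 FPKM with vesicles. The groups overlapped, and the log2 change of 0.08 was not called (limma, Benjamini-Hochberg adjusted p = 0.265). It was the single mRNA with a positive value. mt-Nd2 (chrM:3914-4951), another membrane-arm subunit, was at 476 ± 30.8 FPKM with PBS against 473 ± 7.58 FPKM with vesicles (SD, n = 3 per group), also with overlap and not called.

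The complex I genes farther along behaved otherwise. mt-Nd4l (chrM:9877-10173), the smallest complex I subunit encoded here, was at 1074, 1128 and 1025 FPKM with PBS against 837, 809 and 833 FPKM with vesicles. The groups lay well apart, and the log2 change was -0.38 with a standard error of 0.06 (limma, Benjamini-Hochberg adjusted p = 0.00178). mt-Nd4 (chrM:10167-11544), a proton-pumping subunit, was at 914, 901 and 878 FPKM with PBS against 686, 757 and 653 FPKM with vesicles, a log2 change of -0.36 (limma, Benjamini-Hochberg adjusted p = 0.00465). mt-Nd5 (chrM:11742-13565), the pump subunit at the far end of the membrane arm, was at 779, 749 and 715 FPKM with PBS against 582, 629 and 578 FPKM with vesicles. That is a log2 change of -0.33 (limma, Benjamini-Hochberg adjusted p = 0.00481), again without overlap. mt-Nd3 (chrM:9459-9806), which encodes a small subunit near the joint of the complex's arms, was at 301, 329 and 291 FPKM with PBS against 264, 246 and 237 FPKM with vesicles. It fell by 0.30 on the log2 scale (limma, Benjamini-Hochberg adjusted p = 0.0122). With both libraries of a replicate number left out, so that 4 libraries remained, mt-Nd3 lost its call without number 2 or 3, mt-Nd4 without number 1 or 3 and mt-Nd5 without number 1 (adjusted p between 0.0504 and 0.0747), while mt-Nd4l kept its own each time.

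mt-Nd6 (chrM:13552-14070) is the one mRNA of the light strand. It was at 344, 348 and 304 FPKM with PBS against 225, 324 and 198 FPKM with vesicles. Vesicle replicate 2 lay inside the PBS range and the other vesicle libraries lay below it. The log2 change was -0.44 with a standard error of 0.18 and was not called (limma, Benjamini-Hochberg adjusted p = 0.0796). Without vesicle replicate 2 the change was -0.65 and was called (limma, Benjamini-Hochberg adjusted p = 0.00335). A fit that blocks on the replicate number also called mt-Nd6 lower (limma, Benjamini-Hochberg adjusted p = 0.0327). As a share of mitochondrial mRNA reads it was 1.11% ± 0.0571 with PBS and 0.910% ± 0.216 with vesicles (SD, n = 3 per group), with overlap.

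Complex III, the cytochrome bc1 complex, has 1 subunit encoded here, cytochrome b. Its gene mt-Cytb (chrM:14145-15288) is the last mRNA on the heavy-strand transcript. It was at 1096, 1142 and 1030 FPKM with PBS against 815, 867 and 815 FPKM with vesicles. All vesicle libraries lay under the lowest PBS library by more than the spread within either group. The means were 1089 ± 56.1 and 833 ± 30.1 FPKM, a log2 change of -0.39 with a standard error of 0.06 (limma, Benjamini-Hochberg adjusted p = 0.00231).

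Complex IV, cytochrome c oxidase, passes electrons to oxygen, and its 3 catalytic-core subunits are encoded here. mt-Co1 (chrM:5328-6872), which binds the heme groups where oxygen is reduced, was at 3567, 3574 and 3553 FPKM with PBS against 3528, 3607 and 3373 FPKM with vesicles. These ranges overlapped, and the log2 change of -0.03 was not called (limma, Benjamini-Hochberg adjusted p = 0.697). mt-Co2 (chrM:7013-7696), which receives electrons from cytochrome c, was at 1849 ± 110 FPKM with PBS against 1690 ± 34.9 FPKM with vesicles (SD, n = 3 per group). It also overlapped between groups and was not called. mt-Co3 (chrM:8607-9390), the third core subunit, was at 1497, 1554 and 1492 FPKM with PBS against 1377, 1401 and 1332 FPKM with vesicles. Here the groups did not overlap, but the log2 change of -0.14 missed the threshold (limma, Benjamini-Hochberg adjusted p = 0.0521). It passed with the replicate block (adjusted p = 0.0430), with voom (adjusted p = 0.0434) and with a pseudocount of 0.1 (adjusted p = 0.0485).

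Complex V makes ATP from the proton gradient, and mt-Atp6 and mt-Atp8 encode subunits of its membrane part. mt-Atp6 (chrM:7927-8607) was at 1872, 1935 and 1813 FPKM with PBS against 1590, 1657 and 1647 FPKM with vesicles, a log2 change of -0.20 (limma, Benjamini-Hochberg adjusted p = 0.0188). mt-Atp8 (chrM:7766-7969) was at 1385, 1468 and 1299 FPKM with PBS against 1237, 1236 and 1211 FPKM with vesicles. Neither gene overlapped between groups. The log2 change of mt-Atp8 was -0.17, which missed the threshold (limma, Benjamini-Hochberg adjusted p = 0.0550) and passed it with the replicate block (adjusted p = 0.0424) and with voom (adjusted p = 0.0434). Without PBS replicate 3 mt-Atp8 was called as well (adjusted p = 0.0354). The call of mt-Atp6 was lost without vesicle replicate 1 (adjusted p = 0.0752) or vesicle replicate 3 (adjusted p = 0.0581), under median-of-ratios scaling or quantile normalization, and with both libraries of any replicate number left out, so that it stood in 10 of 17 alternatives.

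The order of the genes along the heavy-strand transcript and the size of their change ran in parallel. Over the 12 heavy-strand mRNAs, Spearman's rho between place in the order and log2 change was -0.95, given as a description, since neighbouring genes share a transcript, bases and reads. The mean log2 change was 0.02 for the first 3 mRNAs (mt-Nd1, mt-Nd2 and mt-Co1) and -0.35 for the last 5 (mt-Nd3, mt-Nd4l, mt-Nd4, mt-Nd5 and mt-Cytb). Between them stood mt-Co2, mt-Atp8, mt-Atp6 and mt-Co3, with values from -0.20 to -0.13. Formed from same-numbered libraries, rho was -0.94, -0.83 and -0.97 for replicates 1 to 3. The rRNAs, which come before mt-Nd1 on this strand, stood outside the order, with a larger fall in the fit than any heavy-strand mRNA. Between same-numbered libraries this held for replicates 1 and 2 but not for replicate 3. There mt-Rnr1 was at -0.34 and mt-Rnr2 at -0.41, beside -0.43 for mt-Nd4 and -0.34 for mt-Cytb.

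**Figure D2:**
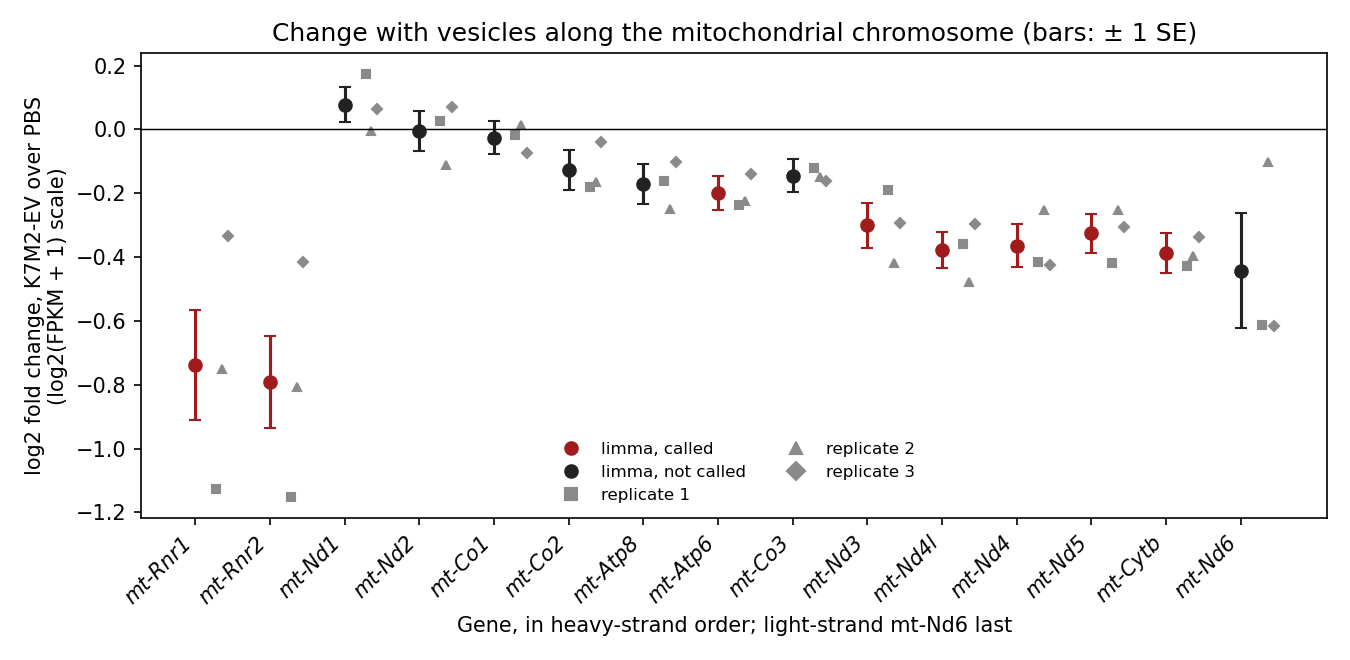
Log2 fold change of each mitochondrial mRNA and rRNA (circles, limma estimate ± 1 SE, n = 3 per group; red where called) with the log2 ratios of same-numbered libraries in grey, against place on the heavy strand, light-strand mt-Nd6 last. From mt-Nd1 to mt-Cytb the estimates go from 0.08 to -0.39, while mt-Rnr1 and mt-Rnr2 at the left are at -0.74 and -0.79.

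Ratios within a library set distal mRNAs against proximal ones without any scaling between libraries. They compare genes near the ends of the order, use the same values and are no separate support for it. mt-Nd1 was also the mRNA with the highest log2 change. The ratio of mt-Cytb to mt-Nd1 was 0.967, 0.939 and 0.872 in PBS replicates 1 to 3 and 0.637, 0.715 and 0.660 in K7M2-EV replicates 1 to 3. That of mt-Nd5 to mt-Nd1 was 0.687, 0.616 and 0.605 with PBS and 0.455, 0.519 and 0.468 with vesicles. The groups did not overlap in either ratio, so that these 2 distal mRNAs were lower relative to mt-Nd1 in every vesicle library. Against mt-Nd2, mt-Nd5 was at 1.57 ± 0.0881 with PBS and 1.26 ± 0.0695 with vesicles, again without overlap. Genes that share an mRNA kept their ratio within the spread: mt-Atp8 over mt-Atp6 was 0.738 ± 0.0211 with PBS and 0.753 ± 0.0220 with vesicles (SD, n = 3 per group). For mt-Nd4l over mt-Nd4 it was 1.20 ± 0.0473 with PBS and 1.19 ± 0.107 with vesicles. Within the mRNA reads, mt-Co1 took 35.4% ± 0.729 with PBS and 38.2% ± 0.366 with vesicles. Complex IV took 51.1% ± 0.479 and 54.0% ± 0.243, and complex I took 30.9% ± 0.159 and 29.6% ± 0.146, none of the 3 shares overlapping between groups.

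**Figure D3:**
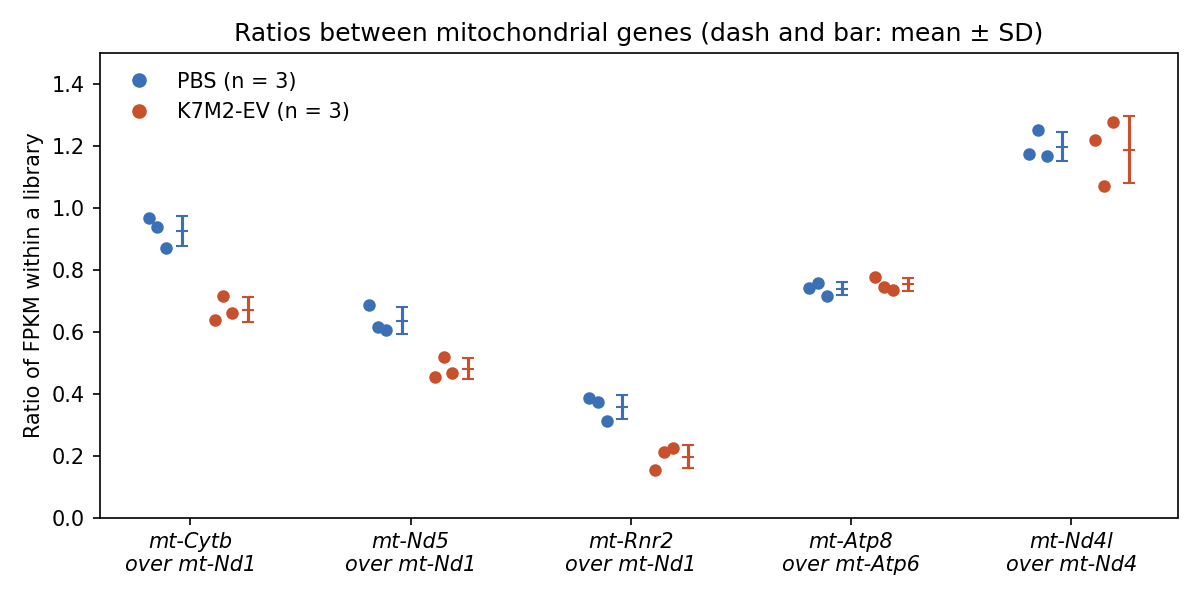
Ratios of FPKM between mitochondrial genes in each library (points), with the mean ± SD of each group beside them (n = 3 per group) on an axis that starts at 0. mt-Cytb, mt-Nd5 and mt-Rnr2 relative to mt-Nd1 are lower in all vesicle libraries, while the 2 pairs that share an mRNA overlap between groups.

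Scaling between libraries shifted the values of these genes. Median-of-ratios scaling shifted the median of all genes tested from -0.12 to 0.00 and the split of calls from 2395 higher and 4631 lower to 3445 higher and 3376 lower. Quantile normalization gave 3135 higher and 3282 lower. Under median-of-ratios scaling mt-Nd1 was called higher, with a log2 change of 0.23 (limma, Benjamini-Hochberg adjusted p = 0.00955), and 4 mRNAs (mt-Nd4l, mt-Nd4, mt-Nd5 and mt-Cytb) were called lower. mt-Atp6 was then at -0.05 and mt-Nd3 at -0.15, neither called. Quantile normalization also left 4 mRNAs lower, namely mt-Nd3, mt-Nd4l, mt-Nd5 and mt-Cytb. There mt-Nd4 was at -0.23 (limma, Benjamini-Hochberg adjusted p = 0.0585) and mt-Atp6 at -0.12 (adjusted p = 0.309). Both rRNAs were called lower under each scaling, and rho for the order was between -0.97 and -0.90 over all the alternatives. A statement that the early mRNAs did not change therefore depends on the scaling, while their difference from the late ones was present under each.

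The tRNAs carry amino acids to the mitochondrial ribosome. Standard RNA-seq libraries recover such short molecules poorly. The tRNAs that the values turn on are printed with the anticodon in capitals, to show which codons they read. mt-Ts1 (chrM:6870-6938, minus strand) is a serine tRNA, mt-Tr (chrM:9808-9875, plus) the arginine tRNA, mt-Tl1 (chrM:2676-2750, plus) a leucine tRNA and mt-Tp (chrM:15356-15422, minus) the proline tRNA.
mt-Ts1: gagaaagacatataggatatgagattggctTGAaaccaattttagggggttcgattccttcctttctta
mt-Tr: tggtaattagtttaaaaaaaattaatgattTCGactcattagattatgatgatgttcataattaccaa
mt-Tl1: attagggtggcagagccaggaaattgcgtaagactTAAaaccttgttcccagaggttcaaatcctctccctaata
mt-Tp: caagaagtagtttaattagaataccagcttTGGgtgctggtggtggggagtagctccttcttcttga
mt-Tl1 lies directly between mt-Rnr2 and mt-Nd1, and mt-Tr directly between mt-Nd3 and mt-Nd4l.

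Of 19 tRNAs tested, 2 were called lower, none higher and 17 were not called, with a median log2 change of -0.14. Median-of-ratios scaling gave 2 called lower and 2 higher. Among 727 nuclear genes with at most 200 exonic bases, 18.0% were called lower and 7.70% higher. The groups did not overlap in 3 of the 19 tRNAs, mt-Ts1, mt-Tr and mt-Tn, each lower with vesicles. Such a separation was found in 42.0% of all genes tested and in 23.0% of the short nuclear genes, so the tRNAs did not exceed either share.

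mt-Ts1 had 8, 8 and 10 reads in PBS replicates 1 to 3 and 5, 5 and 4 reads in K7M2-EV replicates 1 to 3. The level went from 5.45 ± 0.184 to 2.89 ± 0.441 FPKM, a log2 change of -0.73 (limma, Benjamini-Hochberg adjusted p = 0.000791). Summed over each group these are 26 reads (95% Poisson interval 17.0 to 38.1) and 14 reads (7.65 to 23.5), and the intervals overlap. mt-Tr had 12, 14 and 14 reads with PBS and 10, 8 and 10 reads with vesicles, a log2 change of -0.48 (limma, Benjamini-Hochberg adjusted p = 0.00423). Its sums of 40 reads (28.6 to 54.5) and 28 reads (18.6 to 40.5) overlap too, and its call was lost with voom on the recovered reads (adjusted p = 0.0573). The calls rest on reads that varied less between replicates than independent counts would. For the 15 tRNAs with a mean of 1 to 20 reads, the median ratio of variance to mean within groups was 0.136, against 0.790 for 5168 nuclear genes in the same range of reads. It was 0.321 for 1110 nuclear genes there with at most 200 exonic bases. All these sets hold only genes whose recovered reads were whole within 0.1 in every library. Intervals cover counting error alone and assume independent reads, which the low spread between replicates goes against. Their overlap is not a test of a difference, and a call on so few reads is weak.

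The 4 tRNAs with the highest mean level held 63.6% to 72.2% of all tRNA reads in a library, and none was called. mt-Tl1 had 156, 161 and 174 reads with PBS and 172, 155 and 171 reads with vesicles, 95.2 ± 5.18 and 94.4 ± 1.07 FPKM. Its log2 change was -0.01, while mt-Rnr2 just before it was at -0.79 and mt-Nd1 just after it at 0.08. mt-Tm, the methionine tRNA between mt-Tq and mt-Nd2, had 53, 49 and 46 reads with PBS and 69, 46 and 68 with vesicles. mt-Tw, the tryptophan tRNA, had 50, 43 and 55 reads with PBS and 42, 46 and 34 with vesicles. mt-Ti, the isoleucine tRNA, had 27, 34 and 30 reads with PBS and 44, 31 and 39 with vesicles. The groups overlapped in all 4. mt-Ti was called higher without PBS replicate 2 (limma, Benjamini-Hochberg adjusted p = 0.0330) and mt-Tw lower without vesicle replicate 2 (adjusted p = 0.0205).

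The other tested tRNAs had mean levels of at most 13.4 FPKM in either group. mt-Tp, whose log2 change was 0.41, had 12, 17 and 15 reads with PBS and 22, 22 and 17 with vesicles. It was not called (limma, Benjamini-Hochberg adjusted p = 0.0818) but was called higher with the replicate block (adjusted p = 0.0244) and under median-of-ratios scaling (adjusted p = 0.0257), where mt-Ti was called higher as well (adjusted p = 0.0406). mt-Tl2, at -0.45, was not called (limma, Benjamini-Hochberg adjusted p = 0.156) but was called lower with the block (adjusted p = 0.0338). mt-Te was at -0.51, mt-Tt and mt-Td each at -0.43, mt-Tk at -0.26 and mt-Tn at -0.17. mt-Ta, mt-Tq and mt-Th were between -0.14 and -0.10, and mt-Tg, mt-Ty and mt-Tc were within 0.03 of 0. Without PBS replicate 1, which had the fewest reads of its group on both, mt-Td (adjusted p = 0.0171) and mt-Tk (adjusted p = 0.00847) were called lower, and mt-Tp was called higher without PBS replicate 2 (adjusted p = 0.0225) or vesicle replicate 3 (adjusted p = 0.0414).

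The 3 tRNAs under the filter were mt-Tf, mt-Tv and mt-Ts2. mt-Ts2 had 1 read in each of the 6 libraries. mt-Tv had 1 read over the PBS libraries and 3 over the vesicle libraries. mt-Tf had 0 reads with PBS and 2 with vesicles, where a count of 0 allows up to 3.69 reads (upper bound of the 95% Poisson interval). mt-Tf and mt-Tv flank mt-Rnr1 at the start of the heavy-strand transcript, and no difference was detectable at this depth.

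**Figure D4:**
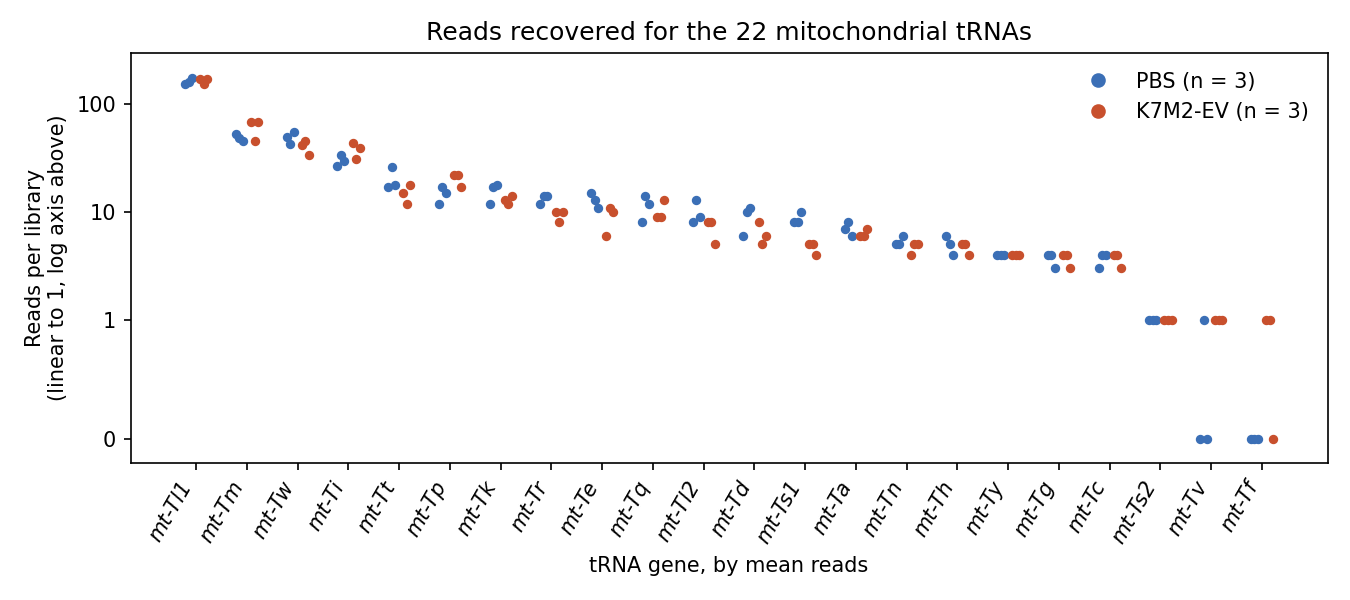
Reads recovered for each of the 22 tRNAs in each library (axis linear to 1 and logarithmic above), ordered by mean reads, 3 PBS and 3 vesicle libraries. mt-Tl1 has 155 to 174 reads per library and stands above the rest, and most others lie at 20 reads or fewer.

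Nuclear genes give the background for the mitochondrial ones, since each respiratory complex but complex II mixes subunits of both genomes. Of 74 nuclear subunits tested, 24 were called higher, 2 lower and 48 were not called, with a median log2 change of 0.13, where 18.4% of all genes tested were higher and 35.6% lower. By complex, the nuclear subunits called higher and lower were 11 and 0 of 36 in complex I, 3 and 0 of 9 in complex III, 6 and 0 of 11 in complex IV and 3 and 1 of 14 in complex V. In these complexes the mitochondrial subunits had no call higher and 6 lower of 13. The difference between the mitochondrial and the nuclear subunits was not tested. Cox5a, a complex IV subunit, went from 21.9 ± 1.44 to 57.8 ± 4.46 FPKM (SD, n = 3 per group), Ndufc2, of complex I, from 21.6 to 38.1 FPKM and Sdhb, of the wholly nuclear complex II, from 32.0 to 47.5 FPKM. The 2 called lower were Sdhd of complex II and Atp5g2 of complex V, at -0.24 and -0.22 on the log2 scale. Both calls are weak: Sdhd kept its own in 8 of 17 alternatives and lost it without PBS replicate 3 or any vesicle library, and Atp5g2 kept its own in 9 of 17 and lost it without PBS replicate 2, PBS replicate 3 or vesicle replicate 3 (limma, Benjamini-Hochberg adjusted p between 0.0625 and 0.101 for these single libraries). Under median-of-ratios scaling 47 nuclear subunits were higher and none lower.

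Of 23 tested genes for transcription and replication of mitochondrial DNA, 9 were lower and 3 higher, with a median of -0.14. These shares and the median lie near those of all genes tested (35.6% lower, 18.4% higher, median -0.12), so the count is no result about the list. Tfam, which packages mitochondrial DNA and is needed to start its transcription, was at 3.84, 3.56 and 3.97 FPKM with PBS against 2.99, 2.62 and 2.81 FPKM with vesicles. No vesicle library reached the lowest PBS library, and the log2 change was -0.33 (limma, Benjamini-Hochberg adjusted p = 0.00560). Polrmt, the mitochondrial RNA polymerase, had 2.39 ± 0.127 FPKM with PBS against 2.03 ± 0.0647 FPKM with vesicles and missed the threshold (limma, Benjamini-Hochberg adjusted p = 0.0606), although its groups did not overlap and voom called it lower (adjusted p = 0.0435). Among the largest called falls were the nuclease Dna2 (-0.73), the thymidine kinase Tk2 (-0.38) and the exonuclease Mgme1 (-0.36). The called rises were the pyrimidine nucleotide carrier Slc25a33 (1.05), the nucleotide kinase Cmpk2 (0.89) and the DNA ligase Lig3 (0.25). Tk2 and Lig3 each kept their call in 9 of 17 alternatives. Tk2 lost it without PBS replicate 1 or 3 or vesicle replicate 1 or 2, and Lig3 without PBS replicate 1 or 3 or any vesicle library (limma, Benjamini-Hochberg adjusted p between 0.0513 and 0.0931). Tfam and Mgme1 lost theirs under quantile normalization (adjusted p = 0.0820 and 0.150) and without replicate number 3 in both groups. Cmpk2, an interferon-inducible gene, went from 2.63 ± 0.188 to 5.83 ± 1.51 FPKM. With median-of-ratios scaling 4 of this list were lower and 4 higher, and with quantile normalization 1 was lower and 6 were higher.

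Of 41 tested genes for processing, modification and decay of mitochondrial RNA, 6 were higher and 9 lower, both under the 18.4% and 35.6% of all genes tested. Median-of-ratios scaling gave 11 higher and 2 lower, and quantile normalization 15 higher and 3 lower. Lrpprc, which with Slirp protects mitochondrial mRNAs from decay, had 7.31 ± 0.325 FPKM with PBS against 7.11 ± 0.232 FPKM with vesicles, without a call. Slirp was at 4.20 ± 0.325 and 6.04 ± 1.70 FPKM, with overlap and no call. Vesicle replicate 1 was at 4.09 FPKM and vesicle replicates 2 and 3 at 6.87 and 7.16 FPKM. Slirp was called higher without vesicle replicate 1 (limma, Benjamini-Hochberg adjusted p = 0.00221), under median-of-ratios scaling (adjusted p = 0.0499) and under quantile normalization (adjusted p = 0.0488). Pnpt1, an exonuclease of the mitochondrial RNA degradosome, rose from 6.39 ± 0.530 to 8.28 ± 0.484 FPKM (limma, Benjamini-Hochberg adjusted p = 0.00853), and its helicase partner Supv3l1, a gene picked for mention with its values known, was at 2.41 and 2.42 FPKM and not called. The oligoribonuclease Rexo2 (0.53) and the rRNA methyltransferase Nsun4 (0.27) rose as well. The rRNA methyltransferase Mrm2 (-0.42), the ribosome assembly factor Mettl17 (-0.37) and Hsd17b10 (-0.30), a subunit of the mitochondrial RNase P that cuts tRNAs at their front end, were lower. Hsd17b10 kept its call in 7 of 17 alternatives and lost it without PBS replicate 2 or 3 or any vesicle library. Mettl17 lost its call under quantile normalization (adjusted p = 0.125).

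The mitochondrial ribosome, whose RNAs fell, has its proteins encoded in the nucleus. Among the 77 tested there were 17 calls higher and 9 lower, beside 18.4% and 35.6% of all genes tested, with a median of -0.01. Under median-of-ratios scaling the calls were 29 higher and 3 lower. Mrpl52 (7.68 to 26.1 FPKM), Mrpl45 (6.73 to 16.2 FPKM) and Mrpl57 (5.24 to 10.5 FPKM) rose, while Mrps6 (-0.44), Mrps26 (-0.40) and Mrpl9 (-0.30) fell on the log2 scale. Of 19 tested genes that load amino acids onto mitochondrial tRNAs, 6 were lower and 2 higher, near the 35.6% and 18.4% of all genes tested. Iars2, the isoleucine enzyme, was at -0.58, Mars2 (methionine) at -0.35, Gatb, which helps make the glutamine-loaded tRNA, at -0.32 and Lars2, the enzyme for mt-Tl1 and mt-Tl2, at -0.19. Ears2 (glutamate) was at 0.35 and Gars (glycine), which serves both cytosol and mitochondria, at 0.41. With quantile normalization 7 of these 19 were higher and 2 lower, and Lars2 stood at 0.020. The call of Lars2 stood in 4 of 17 alternatives and was lost without any 1 of the 6 libraries (limma, Benjamini-Hochberg adjusted p between 0.0668 and 0.108). That of Gars stood in 9 of 17 and was lost without PBS replicate 1 or 3 or any vesicle library (adjusted p between 0.0525 and 0.0768).

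Of 15 tested genes for mitochondrial biogenesis and mitophagy, 4 were higher and 5 lower (5 and 4 under median-of-ratios scaling), beside 18.4% higher and 35.6% lower over all genes tested. Pink1, the kinase that marks damaged mitochondria for removal, fell from 10.0 ± 1.20 to 2.87 ± 0.277 FPKM. The mitophagy receptor Bnip3l went from 20.6 to 9.98 FPKM, while its relative Bnip3 went from 4.62 to 7.66 FPKM, both called. Bnip3 lost its call without PBS replicate 1 (limma, Benjamini-Hochberg adjusted p = 0.0561) or PBS replicate 3 (adjusted p = 0.0548). The nuclear receptor Esrra, which activates genes of oxidative metabolism, was higher by 0.53 and the coactivator Pprc1 higher by 0.45 on the log2 scale, and Gabpb2, a subunit of the GABP transcription factor, was lower at -0.38. The coactivator Ppargc1b was at 0.05 and was not called, but under quantile normalization it was called higher at 0.24 (limma, Benjamini-Hochberg adjusted p = 0.0378).

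**Figure D5:**
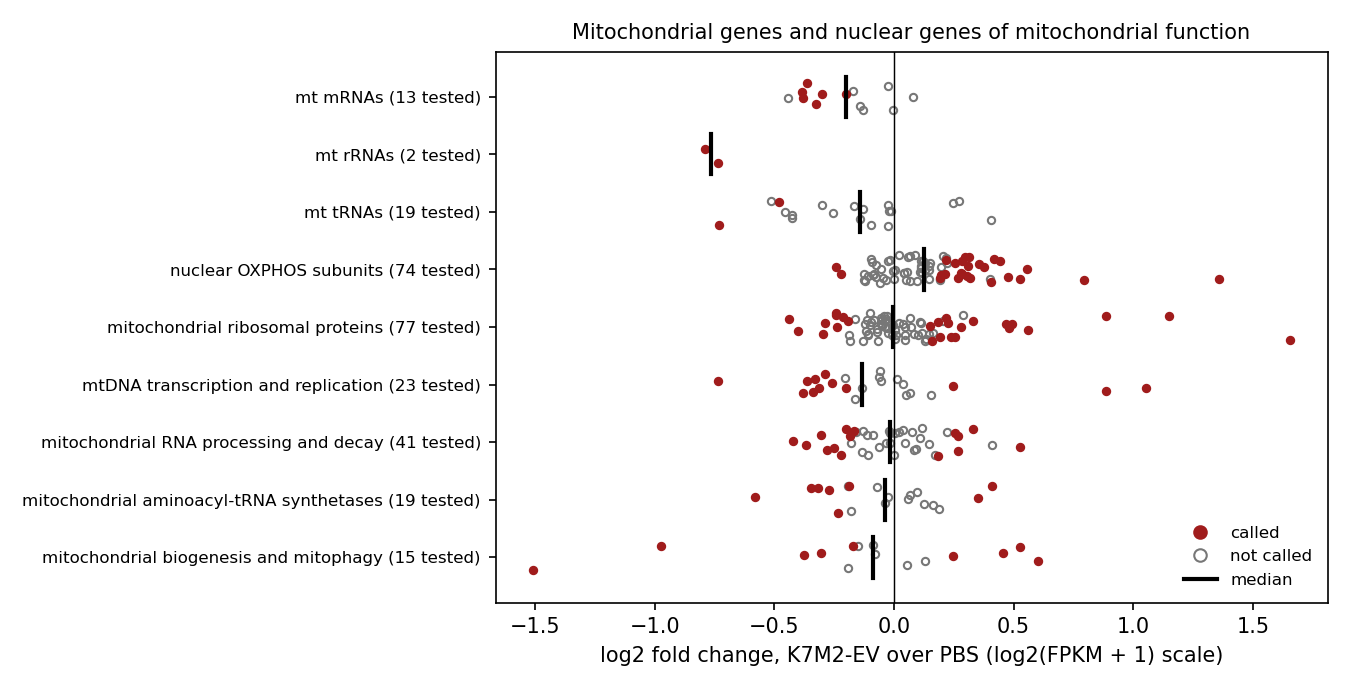
Log2 fold change of each tested gene (points, filled where called at an adjusted p under 0.05) in the 3 classes of mitochondrial genes and in 6 lists of nuclear genes, with a bar at each median. The medians are -0.20 for the mRNAs, -0.76 for the rRNAs and -0.14 for the tRNAs, and 0.13 for the nuclear respiratory subunits.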

How the data were processed

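RNA-seq values of 6 libraries were analysed, 3 per group. For each library the authors deposited 1 table of FPKM values. The unit was read from the values. The tools listed in the submitters' processing notes, with no role for each, are HISAT2 2.1.0, edgeR, CASAVA 1.8 and StringTie 1.3.4b, and the build is GRCm38. Per the labels' protocols, total RNA was made into libraries with a NEBNext Ultra RNA kit. Titles of the samples gave each library's group and number, and p-values measure the spread between these samples.

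Of 26883 rows, 1 without a value and 47 repeats of a symbol (keeping its highest row) were left out, which touched no mitochondrial gene. For 26707 genes (99.5%) the symbol had a position and exon length in GENCODE M21 (GRCm38). The product of FPKM and length fell on multiples of 1 step per library, with 72.4% to 73.2% of values worth at most 20 reads whole within 0.1. Reads recovered this way are approximate. Nuclear copies were found with blastn 2.17.0.

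The test used limma 3.58.1 with statmod 1.5.0 in R 4.3.3 (lmFit, then robust eBayes with a trend) on log2(FPKM + 1) of genes reaching 1 FPKM in 3 or more libraries, without further scaling and with Benjamini-Hochberg adjustment over 13009 genes. The log2 scale with a pseudocount of 1 understates the change of low genes. Tables and plots were made in Python 3.11.15 (pandas 2.3.3, numpy 2.4.6, matplotlib 3.10.9). The fit was also run on simulated reads in which few genes changed, as many up as down. That run does not cover the effect of scaling in these data. Members and gene lists were chosen with earlier results of these data known. Named were all mitochondrial mRNAs and rRNAs, the tRNAs, the 3 highest nuclear copies, in each nuclear list the 3 largest called changes in each direction, and Tfam, Polrmt, Lrpprc, Slirp, Pnpt1, Ppargc1b, Cmpk2 and Lars2.

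Deviations from the group mean correlated across genes between libraries of the same number (0.317, 0.294 and 0.209). This points to a pairing that no label states. The values and calls reported come from the fit without a block, and a replicate block in the fit is given where it changes a call. Alternatives also covered the pseudocount, the filter, the scaling, voom and leaving libraries out. Adding the reads of nuclear copies was chosen after seeing the data.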

Additional observations from a re-analysis of the deposited data

How the results depend on the processing

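Both rRNAs were lower in all alternatives. The 6 mRNAs called lower became 3 to 7 with libraries left out. The share of mRNA reads among genes with an exon length, 0.860 of that with PBS, was 0.915 without Fth1. The tRNA share was 0.965 without Fth1 and 0.870 to 0.956 with a library left out. Median-of-ratios scaling called 1 mRNA and 2 tRNAs higher. Voom called 1 tRNA lower. The replicate block called 9 mRNAs and 3 tRNAs lower and 1 tRNA higher, and changed the call of mt-Atp8, mt-Co3, mt-Nd6, mt-Tl2, mt-Tp and Lars2 (adjusted p = 0.0687) and of no other named gene. With libraries left out, 0 to 2 tRNAs were higher and 2 to 4 lower, and over all genes 1531 to 2416 were higher and 2847 to 4281 lower.

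Counts in the nuclear lists moved with the scaling or with libraries left out, and the cause was not tested. Under median-of-ratios scaling the counts higher and lower were 47 and 0 for respiratory subunits, 29 and 3 for ribosomal proteins, and 11 and 2 for RNA processing. The count lower was 4 for DNA transcription and replication, and the count higher was 5 for aminoacyl-tRNA synthetases. Under quantile normalization they were 26 and 3 for ribosomal proteins, 15 and 3 for RNA processing, 6 and 1 for DNA transcription and replication and 7 and 2 for synthetases. Quantile normalization reversed Atp5g2 to 0.043 and Lars2 to 0.020. Without the filter on low values, 1 respiratory subunit was lower, 10 ribosomal proteins higher and 1 synthetase higher. With libraries left out, the ranges higher and lower were 12 to 26 (13 without number 1 in both groups) and 0 to 2 for respiratory subunits, 6 to 14 and 0 to 9 for ribosomal proteins, 2 to 6 and 3 to 7 for RNA processing, 0 to 3 and 1 to 5 for synthetases, and 2 to 4 and 3 to 5 for biogenesis and mitophagy. For DNA transcription and replication 1 to 8 were lower. Among the mitochondrial genes, low depth limits the tRNAs.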
